A study of Mus musculus with 2 samples.

Results

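Mir122, Mir192, Mir194-1 and Mir194-2 are microRNA genes known from liver and gut, and they were followed here in lung of the mouse embryo. They were chosen by name, as rows of the deposited count tables whose identifier carries one of these symbols in GENCODE release M21. All 4 were found among the 1973 microRNA genes of the tables, and 3 of the 4 had at least 10 counts in each library (called detected here), which Mir194-1 did not. Small RNA was sequenced from lungs of B6NCrl mice at embryonic day 16.5, in one group of 2 biological replicates with no treatment and no other genotype. Replicate 2 was a pool of lungs of 41 embryos, and replicate 1 was also a pool, whose size is not given in the sources used here. Both pools mixed male and female embryos. The tables are a single library per pool, so differences between pools and between library preparations cannot be told apart. In these bulk samples, fewer cells of a type and less RNA per cell cannot be told apart either.

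MicroRNAs are cut from hairpin transcripts as short RNAs from the left (5p) or right (3p) arm, and they pair with messenger RNAs mainly through the seed, bases 2 to 8 of the mature sequence. Mir122 gives the most abundant microRNA of hepatocytes and is a standard marker of liver tissue, where it is known for its part in lipid metabolism. The miR-192 and miR-194 genes are transcribed together and are typical of epithelium of liver, intestine and kidney. Mir215, which lies beside Mir194-1 and whose product has the seed of miR-192, is the partner gene of this group and is described with it.

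The mature 5p sequences show which of these genes can be told apart by their reads and which share a seed. They are from RefSeq (build GRCm38.p6), in which 3 of the 4 members matched an entry, and are written 5′ to 3′ with the seed in capitals.
miR-192-5p: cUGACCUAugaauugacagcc
miR-215-5p: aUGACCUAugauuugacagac
miR-194-5p: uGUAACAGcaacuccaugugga
miR-192-5p and miR-215-5p had the same seed and were the only mature sequences of the RefSeq table with it. They differed at 3 of 21 positions, C1A, A12U and C20A, counted from the 5′ end with the base of miR-192-5p first. miR-194-5p is given by both Mir194-1 and Mir194-2 as one identical sequence of 22 bases, and no other mature sequence of the table had its seed.

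The 3p arms of the Mir194 genes differ, so only reads from these arms or reads that run past the shared stretch can place a molecule in one gene.
miR-194-1-3p: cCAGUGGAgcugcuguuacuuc
miR-194-2-3p: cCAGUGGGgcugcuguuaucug
These arms differed at 4 of 22 positions, A8G, C19U, U20C and C22G, with the base of miR-194-1-3p first. The change at position 8 falls in the seed. The longest run shared by the Mir194-1 and Mir194-2 hairpins was 22 bases and was miR-194-5p itself. Reads that match several loci are a separate line of the tables (31.8% of all reads in replicate 2 and 30.0% in replicate 1) and were not given to genes. The gene counts of Mir194-1 and Mir194-2 may therefore be too low, and how many of the set-aside reads were miR-194-5p was not measured here. For Mir122, Mir192 and Mir215 the longest run shared with any other annotated microRNA hairpin was 12, 12 and 11 bases.

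The miR-192 and miR-194 genes lie in a pair of clusters, each with a Mir194 gene first (mm10, plus strand). Mir194-2 (ENSMUSG00000065582.1, chr19:6264643-6264728) and Mir192 (ENSMUSG00000065523.1, chr19:6264844-6264932) are 115 bases apart. They lie within no other annotated gene, 2307 bases beyond the end of Atg2a in the case of Mir194-2. Mir194-1 (ENSMUSG00000065581.1, chr1:185313319-185313385) and Mir215 (ENSMUSG00000065562.1, chr1:185313581-185313692) are 195 bases apart. Mir194-1 is in an intron and Mir215 in an exon of the noncoding gene 2010103J01Rik on the same strand, and both lie opposite an intron of Iars2.

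**Figure D1:**
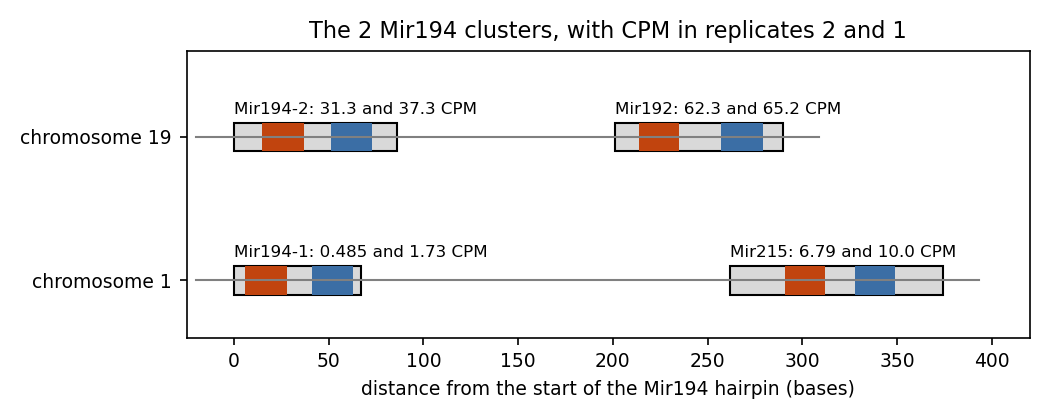
Map of the cluster on chromosome 19 (top) and on chromosome 1 (bottom), with the distance in bases from the start of the Mir194 hairpin on the x axis. Grey boxes are hairpins, orange the 5p and blue the 3p mature sequences, and the values are CPM in replicate 2, then replicate 1. By counted reads, without those that match several loci, both genes of the chromosome 19 cluster were above both of the chromosome 1 cluster.

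Mir122 (ENSMUSG00000065402.1) lies alone on chromosome 18 at 65248861 to 65248926, plus strand. It overlaps an exon of the noncoding gene AC157910.3 on the same strand, and no other microRNA gene is annotated within 10000 bases of it.

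Mir122 was the highest of these genes in both libraries and the one that differed most between them. It had 2477 counts in replicate 2 and 711 counts in replicate 1. Scaled to a total of 1e+06 counts over microRNA genes (CPM), that is 601 CPM in replicate 2 (exact Poisson 95% interval 577 to 625) and 111 CPM in replicate 1 (103 to 120). Replicate 2 was the high library, and the intervals did not overlap. The mean was 356 CPM with an SD of 346 (n = 2), so the spread between the libraries was nearly as large as the level itself. Mir671 and Mir543, the detected genes just above and just below Mir122 in mean CPM, had means of 362 and 355 CPM with SDs of 34.3 and 29.4. Mir122 ranked 120 among all genes in replicate 2 and 192 in replicate 1.

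Mir192, the gene of the chromosome 19 cluster with more counted reads, was at nearly the same level in both libraries. It had 257 counts in replicate 2 and 416 counts in replicate 1, or 62.3 CPM (54.9 to 70.4) and 65.2 CPM (59.1 to 71.8). These intervals overlapped, and the mean was 63.8 CPM ± 2.06 (SD, n = 2). Mir181a-2 (64.0 ± 7.29) and Mir331 (63.7 ± 1.82) were the detected genes just above and just below it in mean CPM, and were picked for that closeness.

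Mir194-2, its neighbour, had 129 counts in replicate 2 and 238 counts in replicate 1. Its level was 31.3 CPM (26.1 to 37.2) in replicate 2 and 37.3 CPM (32.7 to 42.4) in replicate 1, with overlapping intervals and a mean of 34.3 CPM ± 4.27 (SD, n = 2). Mir190a (35.5 ± 7.96) and Mir877 (34.2 ± 2.70) were its neighbours in mean level, picked in the same way. In counted reads, which leave out those that match several loci, Mir192 was above Mir194-2 in each library, with no overlap of the intervals.

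The genes of the cluster on chromosome 1 had the lowest counts of these genes, and only Mir194-1 was near the limit of these libraries. Mir215 had 28 counts in replicate 2 and 64 counts in replicate 1, or 6.79 CPM (4.51 to 9.81) and 10.04 CPM (7.73 to 12.8). Mir194-1 had 2 counts in replicate 2 and 11 counts in replicate 1, or 0.485 CPM (0.0587 to 1.75) and 1.73 CPM (0.861 to 3.09). The value of Mir194-1 in replicate 2 was under what a count of 0 allows there, 0.727 CPM (3 counts), while that in replicate 1 was above the 0.470 CPM allowed there. In counted reads, Mir215 was above Mir194-1 in both libraries without overlap of the intervals. Reads that match several loci are left out, so the counts of Mir194-1 may be too low. Each gene's own intervals overlapped between the libraries.

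**Figure D2:**
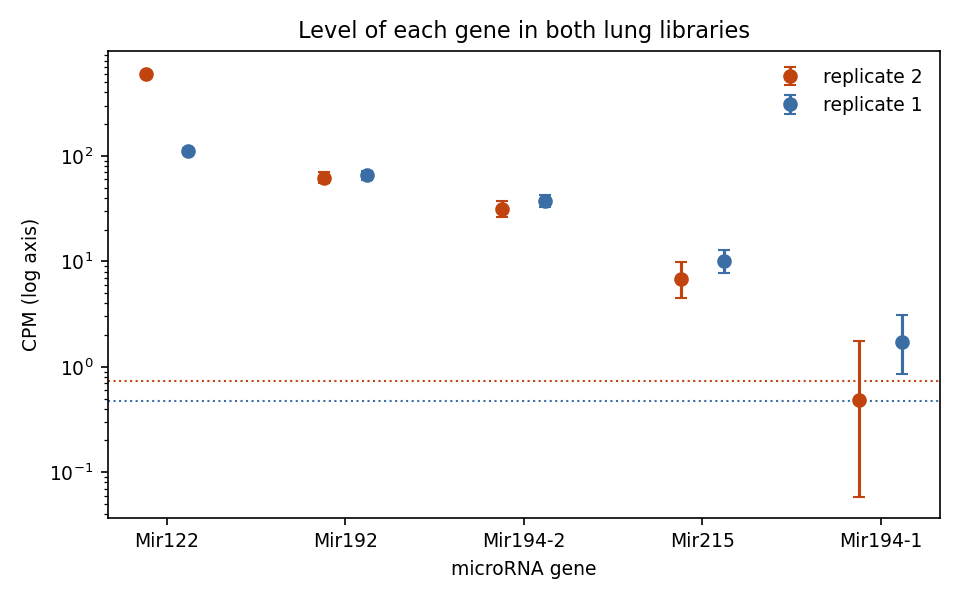
Level of each gene in CPM on a log axis, replicate 2 in orange and replicate 1 in blue, with exact Poisson 95% intervals as bars and the limit that a count of 0 allows as dotted lines. In counted reads, the order Mir122, Mir192, Mir194-2, Mir215, Mir194-1 was the same in both libraries. Mir122 is the gene whose points lie far apart (601 and 111 CPM).

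The order of the 5 genes was the same in both libraries, and the counting intervals of neighbours in that order did not overlap in either. Over the mean of the libraries, Mir122 and Mir192 did not differ beyond the SD of Mir122, which is only the spread of 2 libraries. Within each library Mir122 was above Mir192, at 601 and 62.3 CPM in replicate 2 and 111 and 65.2 CPM in replicate 1. The levels of Mir194-1 and Mir194-2 hold the limit on shared reads given above, so their place in the order is that of the counted reads. Nearly all reads of these genes came from the annotated strand: the opposite strand held 0 counts in replicate 2 for all 5 genes, and in replicate 1 it held 2 counts for Mir122 and 0 for the other genes.

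The libraries were then compared gene by gene with a two-sided exact binomial test of the counts against the library totals, adjusted by the Benjamini-Hochberg method over the 347 detected genes. This test compares the reads of these libraries, not conditions, and weighs a difference against counting error only. Mir122 was 5.39-fold higher in replicate 2 (95% interval 4.95 to 5.86), a log2 ratio of 2.43, and passed the test. Its ratio was the largest in size of the 347 detected genes. Mir192 had a fold of 0.955 (0.815 to 1.12, adjusted p = 0.685, exact binomial test), and Mir194-2 a fold of 0.838 (0.671 to 1.04, adjusted p = 0.186, exact binomial test). Mir215 had a fold of 0.677 (0.418 to 1.07, adjusted p = 0.158, exact binomial test). Mir194-1, under the count minimum, had a fold of 0.281 with an interval of 0.0303 to 1.29.

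Thus 1 of the 3 detected members passed, against a background of 47.0% of all detected genes (163 of 347), or 30.5% when only genes higher in replicate 2 are counted (106 genes). With a fold of at least 1.5 as a second condition, the member was again Mir122, against a background of 5.19% (18 genes) in either direction and 4.03% (14 genes) higher in replicate 2. Of the 163 genes, 106 were higher and 57 lower in replicate 2, while scaling by TMM (edgeR) gave 75 higher and 78 lower, and scaling by the size factors of DESeq2 gave 80 higher and 76 lower. The median log2 ratio was -0.07 over the 3 detected members and 0.05 over all detected genes, whose quartiles were -0.11 and 0.19. When spread between the libraries was allowed for, at the common dispersion of all detected genes (a coefficient of variation of 15.0%), 5 genes passed edgeR's exact test, and Mir122 was one of them. The other genes were Mir196b, Mir128-2, Gm26117 and Mir206, all higher in replicate 2. The dispersion itself came from these libraries, so it contains the difference that was tested.

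**Figure D3:**
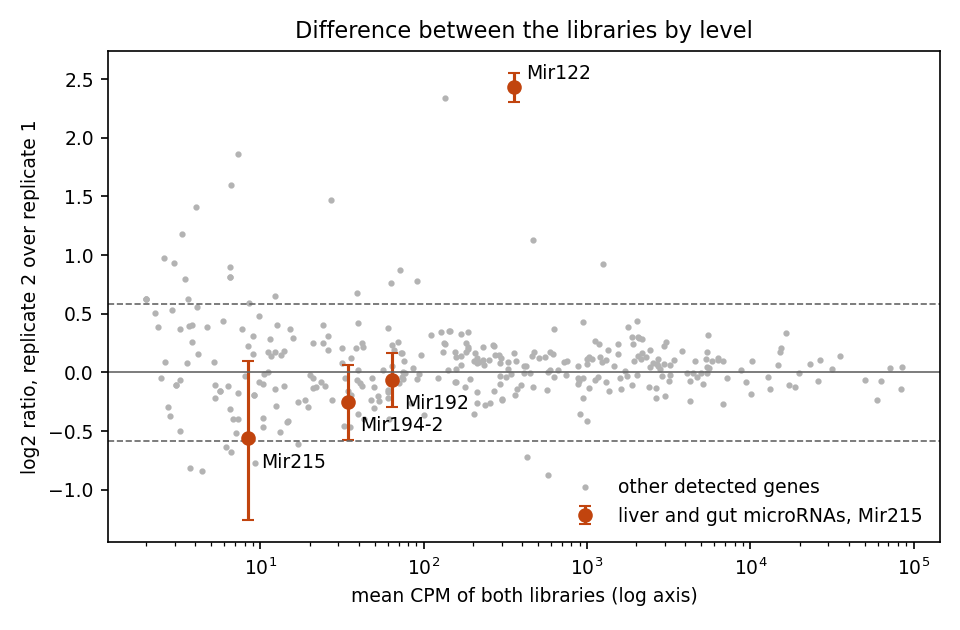
Log2 ratio of replicate 2 over replicate 1 against the mean CPM (log axis) for the 347 detected genes, with Mir122, Mir192, Mir194-2 and Mir215 in orange with 95% intervals and dashed lines at a fold of 1.5. Mir122 is the top point at 2.43, while the intervals of Mir192, Mir194-2 and Mir215 cross 0.

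Ratios between genes within a library do not depend on how the libraries are scaled. These pairs were picked after the values were seen, so intervals are given and no test. Replicate 2 held 9.64 Mir122 reads for each Mir192 read, against 1.71 in replicate 1. The first ratio was 5.64 times the second (95% exact interval 4.71 to 6.76). Against Mir194-2 and Mir215 the change was 6.42 times (5.08 to 8.15) and 7.96 times (4.99 to 12.99). Within the cluster on chromosome 19, by contrast, Mir192 had 1.99 counted reads for each Mir194-2 read in replicate 2 and 1.75 in replicate 1. That is a change of 1.14 times, whose interval of 0.868 to 1.4999 holds 1. Reads that match several loci are left out, so the ratios over Mir194-2 may be too high. Mir192 over Mir215, the pair with a common seed, was 9.18 in replicate 2 and 6.50 in replicate 1, a change of 1.41 times (0.866 to 2.35).

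**Figure D4:**
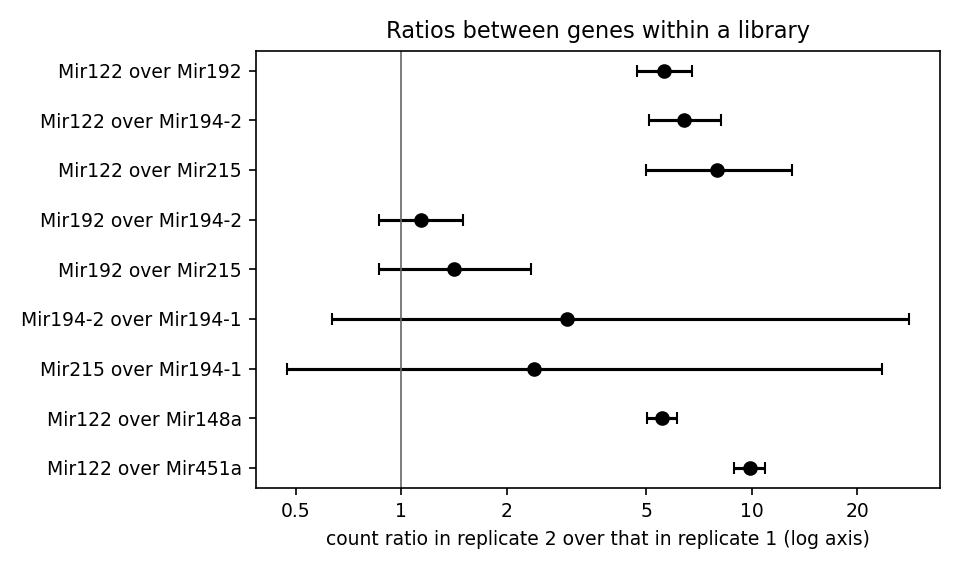
Count ratio of each gene pair in replicate 2 divided by the same ratio in replicate 1, on a log axis, as conditional estimates with exact 95% intervals and a line at 1. All 5 ratios with Mir122 on top lie between 5.55 and 9.85, and the 4 ratios among the other genes have intervals that hold 1.

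Taken as sums, the 4 members had 2865 counts in replicate 2 and 1376 counts in replicate 1, or 695 and 216 CPM. Mir122 made up 86.5% of that sum in replicate 2 and 51.7% in replicate 1. Reads that match several loci were set aside, so the counts of the Mir194 genes may be too low. All sums given here hold counted reads only and may be too low, and the shares of Mir122 may be too high. Without Mir122 the sum was 94.1 CPM in replicate 2 and 104 CPM in replicate 1, a fold of 0.902 (0.794 to 1.02). The cluster on chromosome 19 had 93.6 CPM in replicate 2 and 102.6 CPM in replicate 1, a fold of 0.913 (0.803 to 1.04). The cluster on chromosome 1 had 7.27 CPM in replicate 2 and 11.8 CPM in replicate 1, a fold of 0.619 (0.391 to 0.956), on 30 and 75 counts. That interval is unadjusted and covers counting error only. The intervals of its genes each held 1, at 0.418 to 1.07 for Mir215 and 0.0303 to 1.29 for Mir194-1.

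Genes whose difference between the libraries was most like that of each detected member were sought by the smallest gap in log2 ratio, over 2 libraries, which says little about shared patterns. For Mir122 they were Mir196b of the Hoxa cluster (226 CPM in replicate 2 and 44.7 CPM in replicate 1, 5.06-fold), Gm26117 (11.4 and 3.14 CPM, 3.63-fold) and Mir133b of skeletal muscle (9.94 and 3.29 CPM, 3.02-fold). Mir192 was closest to Mir335, Mir301b and Mir3109, with folds of 0.955, 0.954 and 0.957. For Mir194-2 the closest were Mir181b-1, Mir362 and Mir15a, with folds of 0.839, 0.835 and 0.842.

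Among other microRNAs known from liver, pancreas and gut, no detected gene reached a 1.5-fold difference. Of all 347 detected genes, 314 (90.5%) did not reach it either. All 8 of that list were in the tables and 4 were detected, with a median log2 ratio of 0.10. Mir375 of endocrine cells had 2831 CPM in replicate 2 and 2614 CPM in replicate 1, and Mir483, which lies in Igf2, had 580 and 530 CPM. Both passed the exact binomial test, at 1.08-fold and 1.09-fold, against a background of 47.0% of all detected genes (163 of 347). Mir148a, which is abundant in liver and pancreas, had 617 CPM in replicate 2 and 635 CPM in replicate 1, a fold of 0.971 (0.924 to 1.02). Mir31 had 209 and 195 CPM, and neither Mir148a nor Mir31 passed. With either other scaling, Mir483 did not pass and Mir148a passed as lower in replicate 2. Mir802, known from liver and pancreas, had 4 counts in replicate 2 and 6 in replicate 1. Mir217 and Mir216b, both of pancreas, had 7 and 3 counts in replicate 2 and 6 and 5 in replicate 1, and Mir216a had 0 and 6.

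Of 3 red cell microRNAs, all detected, 2 were lower in replicate 2, against 57 of all 347 detected genes. Mir451a, which accumulates in red cells, had 408 CPM in replicate 2 and 747 CPM in replicate 1, 0.546-fold (0.517 to 0.578). Mir144, found in the same red cell cluster, had 232 and 278 CPM and also passed as lower in replicate 2. No red cell gene passed as higher, and the sum of all 3 was 660 CPM in replicate 2 and 1047 CPM in replicate 1. In the leukocyte list 4 of 5 detected genes were higher in replicate 2, against 106 of all 347 detected genes, and none lower. The highest gene was Mir142b, at 1258 CPM in replicate 2 and 1149 CPM in replicate 1. No gene of the list reached 1.5-fold, and neither did 314 of all 347 detected genes. The count was 2 of 5 with either other scaling, against 75 of 347 with TMM and 80 of 347 with DESeq2's size factors. All reads of Mir142b but 2 lay on the strand opposite to it, so its level and its place in these counts rest on those reads. Mir142 was not analysed here. The part of red cells and leukocytes in the difference of Mir122 was not tested.

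Some microRNAs of other tissues and of Hox loci differed between the libraries as well. Over all 347 detected genes, 106 passed as higher in replicate 2 and 57 as lower. With a fold of at least 1.5, these counts were 14 and 4. Among 5 detected genes of heart and skeletal muscle, Mir206 (643 CPM in replicate 2 and 294 CPM in replicate 1) and Mir133b were higher in replicate 2. Mir208a of heart muscle (324 and 536 CPM) was lower by 1.65-fold, and Mir208b also passed as lower. The summed level was 1201 CPM in replicate 2 and 1083 CPM in replicate 1, and Mir1a-1, Mir133a-1 and Mir133a-2 were at 0 in both, while Mir1a-2 was not analysed here. Mir1a and Mir133a each have several gene copies with one mature sequence, so their reads may be among the set-aside reads that match several loci, and the sum may leave them out. Of 6 detected Hox-embedded genes, 4 were higher in replicate 2 and none lower, with Mir196b, Mir10b (1648 and 868 CPM) and Mir615 (93.1 and 50.8 CPM) past 1.5-fold and Mir10a the most abundant (23649 and 22446 CPM). Their sum was 25644 CPM in replicate 2 and 23442 CPM in replicate 1. In counted reads, which leave out those that match several loci, 2 of 7 detected neural genes passed. These were Mir128-1 (114 and 66.6 CPM) and Mir128-2 (39.5 and 14.3 CPM), both higher in replicate 2. The background for that count was 47.0% of all detected genes in either direction and 30.5% higher in replicate 2. Mir219a-2 had a fold of 2.26 but did not pass (adjusted p = 0.0594, exact binomial test). Mir132 was the highest of that list (239 and 222 CPM), whose sum was 590 CPM in replicate 2 and 489 CPM in replicate 1, with Mir9-2 and Mir124a-1, which also have copies with one mature sequence, at 0 in both and Mir9-1 not analysed here. The part of these tissues and loci in the difference of Mir122 was not tested.

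The lists of lung cell types each had a summed level and a highest gene far above Mir122 in both libraries, while some of their genes were lower than it. Of all 347 detected genes, 106 passed as higher and 57 as lower in replicate 2. These counts were 75 and 78 with TMM, and 80 and 76 with DESeq2's size factors. The 5 airway epithelial genes, led by Mir429 (15090 and 14438 CPM), summed to 33935 CPM in replicate 2 and 32596 CPM in replicate 1, with 3 higher and 1 lower in replicate 2, but 1 and 2 with TMM and 2 and 2 with DESeq2's size factors. Endothelial Mir126a had 79120 CPM in replicate 2 and 87277 CPM in replicate 1 and was lower in replicate 2, while Mir126b was not analysed here. The smooth muscle and mesenchyme list, led by Mir143 (72270 and 70224 CPM), had 3 higher and 1 lower of 6 detected, but 2 and 2 with TMM, under which Mir143 passed as lower, and 2 and 1 with DESeq2's size factors. Its sums were 82846 CPM in replicate 2 and 80536 CPM in replicate 1, and Mir145b was at 0 in both. The 5 multiciliated cell genes summed to 19622 CPM in replicate 2 and 15458 CPM in replicate 1, led by Mir449a (18445 and 14581 CPM), with 3 higher and none lower, of which Mir34b, at 48.3 CPM in replicate 2 and 30.3 CPM in replicate 1 and so below Mir192, reached 1.59-fold. At 601 and 111 CPM, Mir122 was 0.0601% of the microRNA gene counts in replicate 2 and 0.0111% in replicate 1.

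**Figure D5:**
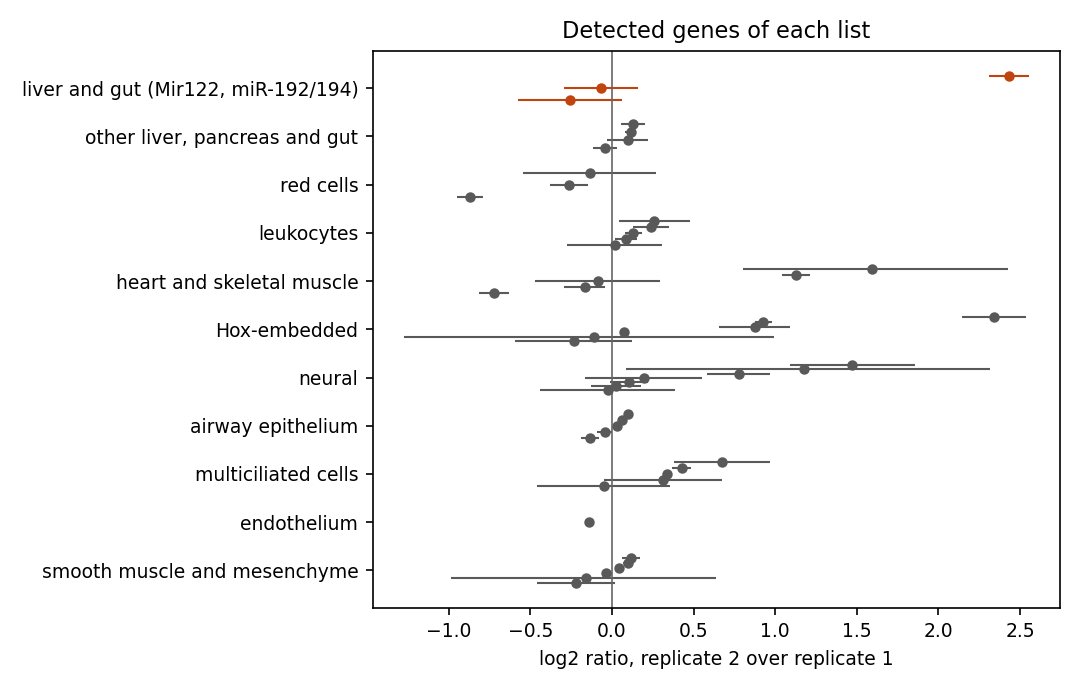
Log2 ratio of replicate 2 over replicate 1 for each detected gene of 11 lists, one row per list, with 95% intervals as lines and a vertical line at 0. The 4 detected genes of the other liver, pancreas and gut list lie between -0.04 and 0.13, while Mir122 (2.43) stands apart from Mir192 (-0.07) and Mir194-2 (-0.25) in the top row.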

How the data were processed

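The authors deposited one table per library with raw read counts per microRNA gene and no normalization. Per the file headers in the notes beside them, the tables derive from alignments to mm10 with GENCODE release M4. For the aligner, the counter and any trimming, nothing is given in the sources used here. The column that ignores strand was used, the sum of both strands in every gene row. Summary lines (51.2% of reads in replicate 2 and 50.4% in replicate 1) stayed out. Gene totals were 4123748 in replicate 2 and 6376715 in replicate 1. Of 1973 identifiers, 1894 matched GENCODE release M21 on the same build.

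Detected genes had at least 10 counts in each library. The fold is replicate 2 over replicate 1, with Clopper-Pearson intervals, an exact binomial test per gene and Benjamini-Hochberg adjustment over all detected genes at 0.05. Intervals and floors (3 counts) cover counting error only, since reads are not independent molecules. Nothing pairs the libraries, and p-values measure only the difference between them.

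Alternatives covered scaling, count column, minimum, dispersion and each replicate left out. The genes and the 12 lists were chosen with earlier results of these data known. Named were the members, Mir215, the 3 genes closest to each detected member in log2 ratio, its neighbours in level, and of each list the highest gene and the detected genes past 1.5-fold. The other liver, pancreas and gut list, Mir144 and Mir208b were named in addition, after their values were seen. Software was R 4.3.3, edgeR 4.0.16, DESeq2 1.42.0, Python 3.11.15, numpy 2.4.6, scipy 1.17.1, pandas 2.3.3 and matplotlib 3.10.9.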

Additional observations from a re-analysis of the deposited data

How the results depend on the processing

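Mir122 passed the test in favour of replicate 2 under all 8 alternatives for the comparison, with log2 ratios of 2.38 to 2.43 and an adjusted p of at most 4.53e-11 (the exact test of edgeR with its common dispersion). Mir192 (-0.12 to -0.06), Mir194-2 (-0.31 to -0.25) and Mir215 (-0.62 to -0.56) did not pass under any, and Mir194-1 (-1.88 to -1.83) could be tested only with no count minimum (adjusted p = 0.277). The number of members that differed was 1 throughout. With edgeR's exact test, the number of genes that differed was 5, of which 5 were higher and 0 lower in replicate 2, and 5 were past 1.5-fold. The binomial test gave 163, 106, 57 and 18, and edgeR's test also allows for spread between the libraries.

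Levels depend on the total they are set against. Without the most abundant gene in the total, all 5 means were higher. They were 389 CPM for Mir122, 69.7 for Mir192, 37.5 for Mir194-2, 9.19 for Mir215 and 1.21 for Mir194-1. Only the mean of Mir192 changed by more than its SD between the libraries, which was small (2.06 CPM). With all reads of the table as the total, all 5 means were lower by more than 1.5-fold, at 174 CPM for Mir122, 31.4 for Mir192, 16.9 for Mir194-2, 4.14 for Mir215 and 0.546 for Mir194-1. Leaving out a replicate gives the value of the other library, 111 to 601 CPM for Mir122, 62.3 to 65.2 CPM for Mir192, 31.3 to 37.3 CPM for Mir194-2 and 0.485 to 1.73 CPM for Mir194-1, and leaves no comparison. No paired analysis was possible because both libraries belong to one group. Mir194-1 and Mir215 rest on the fewest counts, at most 11 and 64 in a library, and their values are the least precise of the 5 genes. What depth and the set-aside reads of miR-194-5p each contribute to the low count of Mir194-1 was not tested.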
